A study of Ambystoma mexicanum with 20 samples.

Results

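The step from segment D to segment E is the last one before the vegetal pole of the axolotl oocyte. It was measured in 8 of the 20 libraries of the series: 4 of segment D and 4 of segment E. A library was chosen by the segment letter in its name, and D and E were paired by the oocyte number in front of that letter, 4, 5, 9 or 10. Each of these 4 oocytes (immature egg cells) of Ambystoma mexicanum, a salamander, was sliced frozen and divided into 5 segments, A at the animal end to E at the vegetal end. Total RNA of each segment was depleted of ribosomal RNA and sequenced with a strand-specific kit from an input of 80 ng. All groups are untreated oocytes as far as the labels say, and the labels give no strain, donor or oocyte stage. Because nothing says that the oocytes came from different females, the p-values speak for these oocytes only. In the fit to all 20 libraries, level differences between oocytes were removed. Its p-values rest on the spread that remained within segments, which includes the libraries of A, B and C. Every library started from an equal mass of RNA, so a level is a share of the RNA in a segment, and more of one RNA cannot be told apart from less of the others.

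In amphibian oocytes the animal-vegetal axis is laid down before fertilization, and some maternal RNAs are carried to the vegetal cortex and anchored there. In the frog Xenopus, such RNAs include determinants of endoderm and mesoderm and components of germ plasm. Salamander germ cells are induced in the embryo and not set aside by germ plasm, so an axolotl oocyte allows localization to be seen apart from that system. The identifiers in the count table carry no gene names and 0 of them matched the RefSeq gene table of the axolotl, so the RNAs are described by identifier and by their course along the axis. For the same reason the oocyte label could not be compared with marker genes, no sequence is shown, and near-identical contigs cannot be told apart.

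Segment D held 3589203 to 7587626 counts per library. Segment E held 806943 to 6651808, and its lowest value was oocyte 4, the shallowest library of the series. In segment E of oocyte 4, 77.0% of the 32960 features had at least 1 count, against 88.6% to 95.4% in the other D and E libraries. Across 15590 features with a mean of at least 10 counts-per-million (CPM, scaled by TMM, which corrects library totals for composition), log2 levels in D and E correlated with r = 0.632 in oocyte 4. In oocytes 5, 9 and 10 this r was 0.813, 0.860 and 0.772. The counts of calls and of their courses are given with and without this oocyte.

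With TMM scaling and an adjusted p, more RNAs were called higher than lower in E, and the called rises were larger. At an unadjusted p under 0.05 the balance was the other way, with 2648 features higher and 3002 lower in E (edgeR). With the oocyte as a block, 2041 of 32302 features tested (6.32%) passed an adjusted p of 0.05 for E against D in edgeR's quasi-likelihood test. Of these, 1272 (3.94% of those tested) were higher in E, with a median log2 fold change of 1.22 (quartiles 0.81 and 1.97). The other 769 (2.38%) were lower in E, with a median of -0.50 (quartiles -0.72 and -0.38), where the median of all tested features was -0.06. At least a 2-fold fitted change was found for 817 of the former and 93 of the latter, and at least a 4-fold change for 300 and 31. Of the former, 7 had at most 3 counts in every D library, and of the latter 16 had so few in every E library. With these set to their bound against a floor of 3 counts per library, the medians were 1.22 and -0.49, and 299 and 17 features reached 4-fold.

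The balance of the calls also depended on the scaling and on the number of libraries. The share of calls on the side of E was 62.3% with TMM, 27.2% with library totals alone (median of all features -0.22) and 6.30% with the constants behind the authors' scaled table (median of all features -0.55). Without oocyte 4, 810 features were called, 670 higher and 140 lower in E. Of these 810, 773 were among the 2041, and all 2041 kept the sign of their fold change in that fit. The 2 fits share the libraries of the other oocytes, and most called features moved the same way in each oocyte. The kept signs therefore describe the calls. The call count fell to 956 without oocyte 9 and to 903 without oocyte 10, and to 123, all higher in E, when D and E were fitted without the other segments. Without the oocyte block it was 859. Oocytes 9 and 10 alone gave 101 calls, and oocytes 4 and 5 alone gave 0 (3910 and 3812 features at an unadjusted p under 0.05, edgeR). This split was chosen with earlier results of these data known, and the labels give no such grouping.

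Most called RNAs moved the same way in each oocyte. Of the 1272 features higher in E, 1255 were higher in all 4 oocytes, which was true of 10.3% of tested features. For 878 the 4 libraries of E lay wholly above the 4 of D, a pattern seen in 3.97% of tested features. Of the 769 lower in E, 741 were lower in all 4 oocytes (12.4% of tested features), and for 384 the groups did not overlap (2.79%). The features were called on the same libraries, so these shares describe the calls.

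The share of features called rose with the mean level in D and E, which includes the E libraries behind the calls. Among 6306 features with 1 to 3 CPM in D and E, 0.159% were higher and 0.444% lower in E. Among 2271 features with at least 100 CPM, 19.8% were higher and 7.18% lower. The median level in E of the features higher there was 81.5 CPM, against 9.25 CPM over all features tested. A high level in E follows in part from the choice of these features. In segment A their median was 13.1 CPM, against 8.63 CPM over all features tested. The 1 to 3 CPM bin held 10 features higher and 28 lower in E, and how large a change could be detected at each level was not tested.

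The RNAs higher in E made up a large share of the library. They held 8.70% ± 2.42 of the counts in D and 19.6% ± 2.31 in E (SD, n = 4). In D the share was 7.501%, 11.4%, 9.85% and 5.995% in oocytes 4, 5, 9 and 10, and in E it was 18.3%, 21.3%, 21.9% and 17.1%. The features were chosen for this difference in the same libraries, so that D lies below E follows from the choice. In A, B and C, which are not in this contrast, their mean share was 4.26%, 4.21% and 4.72%. The RNAs lower in E held 5.84% ± 0.636 of the counts in D and 3.80% ± 0.0872 in E (SD, n = 4), and 7.76% to 8.25% on average in A, B and C.

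**Figure D1:**
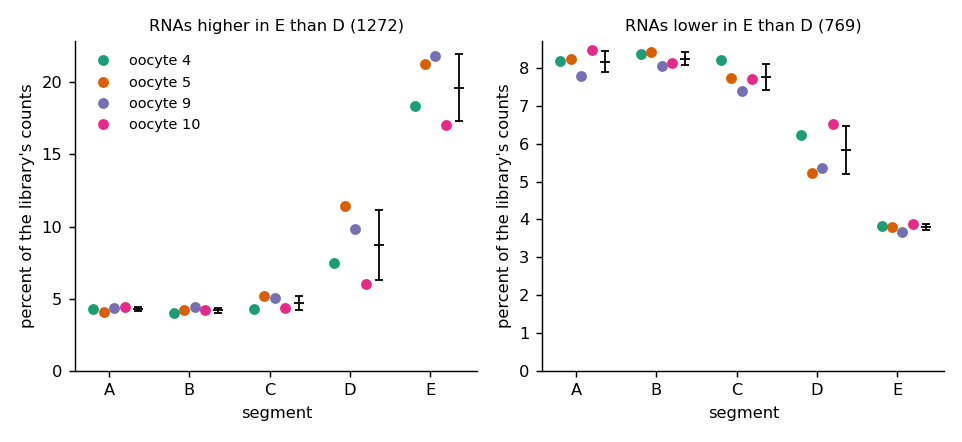
The y axes give the percent of a library's counts held by the 1272 features higher in E than D (left) and the 769 lower in E (right); the x axes give the segment, each point is 1 library, and the black marks are mean and SD over 4 oocytes. The left share is near 4% in A, B and C and climbs through D to 17.1% to 21.9% in E, while D varies most between oocytes.

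To see which RNAs had already changed in D, each called feature was also compared between D and the mean of A, B and C. This comparison called 7.55% of all tested features higher and 5.66% lower in D (edgeR). It shares the D libraries with E against D, so the counts that follow are a description. Of the 1272 features higher in E, 1007 (79.2%) were already higher in D, 14 had fallen in D, and for 251 (19.7%) the change in D was not called. Of the 769 lower in E, 455 (59.2%) were already lower in D, 2 had risen in D, and for 312 (40.6%) the change in D was not called. With segment C alone as the reference, which called 4.14% of tested features higher and 2.74% lower in D, 784 were already higher and 293 already lower. Without oocyte 4 the fit placed 548 features as already higher and 89 as already lower in D, 5 as higher after a fall and 2 as lower after a rise. The change in D was then not called for 117 features higher and 49 lower in E.

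The RNAs already higher in D rose in both steps, which differed between oocytes. They were called in both steps, so that both steps were rises follows from the choice. Over all oocytes their median log2 change was 1.43 into D (from the mean of A, B and C) and 1.29 between D and E. A median of 52.2% of the whole log2 change was reached in D. This was close to the median over all tested features, 48.0%, and over those of at least 10 CPM, 51.5%. In oocyte 5 the medians were 1.83 into D and 0.85 out of it, and in oocyte 10 they were 0.79 and 1.77. The difference of the steps had an unadjusted p under 0.05 for 187 of the 1007, against 6.18% of tested features. Their median level was 13.01 CPM in A, 12.98 CPM in B and 16.7 CPM in C, and it climbed to 44.4 CPM in D and 107 CPM in E. For 578 of the 1007, the mean of E made up 50% or more of the 5 segment means added together. The same held for 44 of the 251 features without a called change in D and for 1159 of the 32302 tested. Both groups were called for a rise into E, so a large share there follows in part from the choice. The RNAs already lower in D fell less: their median log2 change was -0.46 into D and -0.48 from D to E, from a median of 98.8 CPM in C to 75.5 in D and 55.4 in E.

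A change only at the last segment was asked for by testing the difference between the steps, E against D minus D against A, B and C. A missed threshold in D was required as well but was not enough alone. The difference shows that the steps were unequal, not that the level was unchanged in D. The test of the difference called 3 of 32302 features (0.00929%), and 1995 (6.18%) had an unadjusted p under 0.05 (edgeR). It called none (0) of the 251 features higher in E without a called change in D. At an unadjusted p under 0.05 (edgeR) the steps differed for 118 of these 251. The same held for 126 of the 312 features lower in E without a called change in D. Both groups had a called change from D to E and none into D, so this follows in part from the choice. DESeq2 with the same block called 178 features for the difference of the steps, and placed 20 rising and 21 falling features at the last step only. Which RNAs rise only at the pole was thus not resolved by edgeR with TMM, and the number depended on the tool and the scaling. With the authors' constants as scaling, edgeR placed 70 rising and 20 falling features at the last step only.

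The 251 features with no called change in D had a small estimated change there. They were grouped by a missed threshold in D, so this follows in part from the choice. Their median log2 change was 0.24 into D and 0.96 from D to E. For the change into D, 97 of them had an unadjusted p under 0.05 (edgeR). So did 23.8% of all tested features and 5626 of the 15590 of at least 10 CPM. For 185 of the 251, the 95% interval of the change into D lay within a 2-fold change either way. This held for 55% of all tested features, many of them at low levels, and for 12283 of the 15590 of at least 10 CPM. At such levels the interval therefore does not set the 251 apart. Their median level was 14.9 CPM in C, 17.3 in D and 33.8 in E. For the 312 features lower in E, grouped in the same way, the medians were -0.15 into D and -0.52 from D to E. Such an interval was found for 274 of them. Their median level went from 41.8 CPM in D to 28.7 in E. Of these 312, 72 had at least a 2-fold fitted fall from D to E and 29 at least a 4-fold fall. Among the 455 already lower in D, 19 and 1 did. Of the 312, 16 had at most 3 counts in every E library, so the size of their fall is uncertain.

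**Figure D2:**
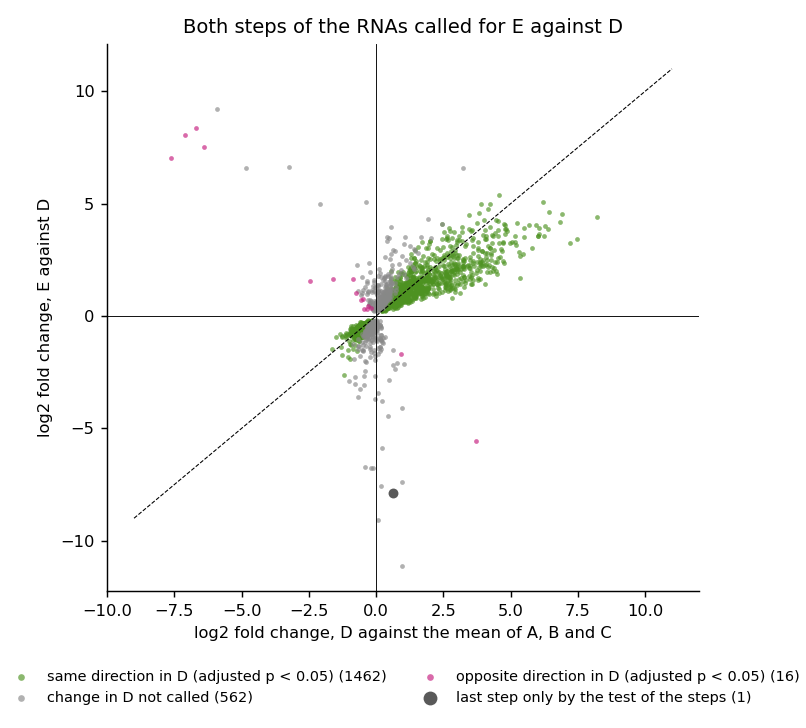
Each point is 1 of the 2041 features called for E against D: the x axis is its log2 fold change of D against the mean of A, B and C, the y axis that of E against D, and the dashed line marks equal steps. Features that changed the same way in D (green, 1462) lie along the line, and those with no called change in D (grey, 562) lie near the vertical axis. The axes share the D libraries, and the colors follow from the tests on the x axis, so these positions follow in part from the grouping.

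The 3 features with different steps each took another course. The first was lost at the pole: its level was 3.10 to 7.29 CPM in the D libraries and its means were 2.85, 3.32 and 4.02 CPM in A, B and C, with 0 counts in all 4 libraries of E. Against a floor of 3 counts per library, which averaged 1.61 CPM in E, its level in E was lower than in D by at least 3.31-fold (adjusted p 0.000136, edgeR). In oocyte 4 that floor was 4.01 CPM, so a count of 0 there says little. Its place among features of the last step only was lost in each fit that left out an oocyte and in thinned libraries (0 features in all 5 fits). The log2 change of this feature into D was 0.64 (adjusted p 0.136, edgeR), a missed threshold and not a measured lack of change. Another dipped in D, from means of 3.90 to 4.25 CPM in A, B and C to 0.738 in D and 2.23 in E. Its D libraries held 0.538 to 1.11 CPM, near the floor of 3 counts per library, which averaged 0.635 CPM in D. The last rose at D and not detectably after it, from 135 CPM in C to 341 in D and 407 in E (adjusted p 0.264 for E against D, edgeR).

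RNAs that turned between the steps were few. Among the 14 features that fell in D and were higher in E, 4 had at most 3 counts in every D library, with means of 2.54 to 3.78 CPM over A, B and C and 2.52 to 4.92 in E. Those 4 were therefore near the limit of detection. Of the 2 features that rose in D and were lower in E, one went from 21.2 CPM in D to 0.406 in E and the other from 15.5 to 4.45. In the first of these a D library was at 0 and another at 46.7 CPM, so its mean rests on a few libraries.

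The 4 oocytes split the same total change differently between the steps. Over the 1272 features higher in E, the median log2 change into D was 0.87 in oocyte 4, 1.42 in oocyte 5, 1.14 in oocyte 9 and 0.58 in oocyte 10. The median from D to E was 1.27, 0.84, 1.18 and 1.61 in the same oocytes. Oocyte 5 thus had the largest step into D and the smallest out of it, and oocyte 10 the reverse. The median change from A, B and C to E varied less, with 2.25, 2.33, 2.45 and 2.20. The steps share the D library of each oocyte, and where the cut fell in each oocyte is not given in the labels, so its part in this was not tested.

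**Figure D3:**
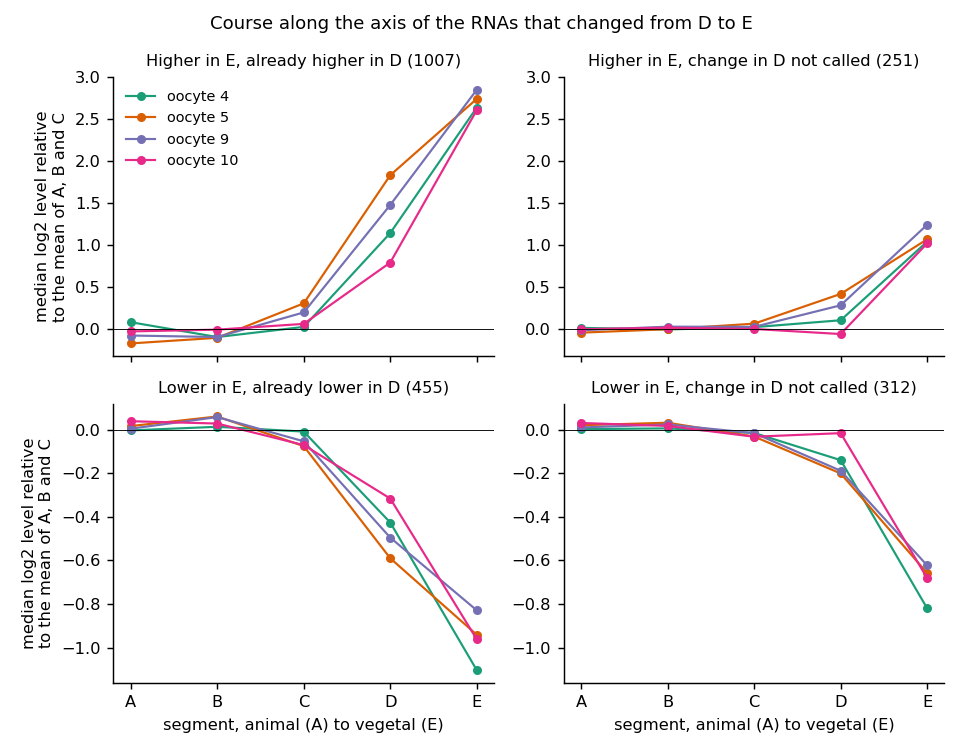
The y axes give the median log2 level of a group of features relative to the mean of A, B and C of the same oocyte, the x axes the segment, and each line is 1 oocyte. Features already higher in D (upper left) reach D at different heights in different oocytes and come closer together in E. Those already lower in D (lower left) do not: they lie at -0.32 to -0.59 in D and at -0.83 to -1.10 in E. Features without a called change in D (right) turn mostly between D and E, which follows in part from how they were grouped.

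For the features lower in E, the median step from D to E was -0.65 in oocyte 4, -0.37 in oocyte 5, -0.35 in oocyte 9 and -0.64 in oocyte 10. In oocyte 4 the median over all 15590 features of at least 10 CPM was itself -0.14, where the other oocytes had -0.01 to 0.01. Relative to that shift its fall was smaller. With every library thinned to 806943 counts, 281 features were lower in E, 197 of them among the 769. Among the 769, 8 features had 0 counts in segment E of oocyte 4 with at least 50 counts in its D, and 7, 5 and 1 did in oocytes 5, 9 and 10.

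A comparison that shares no library with E against D was C against A, which lies in the animal part of the axis. It called 0 features (0%) in edgeR, with 1175 (3.64%) at an unadjusted p under 0.05, and 72 in DESeq2. The median log2 difference of C against A was 0.21 for the 1007 features already higher in D and 0.04 for the 251 without a called change there. Over all features tested it was 0.00. For the features lower in E it was -0.07 and -0.04 in the same order. These groups were formed by the change into D, which also uses the libraries of A and C. The differences between the groups are therefore a description. The oocytes differed for the 1007 features. Their median log2 level relative to the mean of A, B and C was 0.08, -0.18, -0.08 and -0.03 in A of oocytes 4, 5, 9 and 10. In C it was 0.02, 0.30, 0.19 and 0.06, so C lay above A in oocytes 5, 9 and 10 and below it in oocyte 4.

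Among the features already changed in D, those with the largest change in the oocyte that changed least are given with their values. They have at least 10 CPM in D and E and moved the same way in all 4 oocytes. No feature of the last step only was eligible, and the other features without a called change in D were not candidates. That all named features had already changed in D therefore follows from the choice. AMEXTC_0340000049738 had 11.7, 57.4, 43.5 and 19.5 CPM in segment D of oocytes 4, 5, 9 and 10. In E it had 573, 813, 694 and 275 CPM. All E libraries lay far above all D libraries, and the mean was 17.8-fold higher in E. Its log2 fold change was 4.15 ± 0.53 (SE; adjusted p 0.000373, edgeR), after a change of 3.74 ± 0.50 into D from a median of 1.76 CPM in A, B and C. In C alone this feature had 1.56, 14.7, 5.32 and 1.96 CPM in oocytes 4, 5, 9 and 10. Against C alone the change into D was 2.76 (adjusted p 0.0143, edgeR). The threshold for E against D was missed in 1 of 16 alternatives, oocytes 4 and 5 alone (adjusted p 0.186, edgeR).

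AMEXTC_0340000003756 differed more between oocytes in D, with 3.62, 36.7, 41.6 and 2.01 CPM in oocytes 4, 5, 9 and 10. In E it had 297, 534, 540 and 217 CPM. In oocyte 10 its level in D lay within the 1.47 to 2.15 CPM of A, B and C of the same oocyte. In oocyte 4 it was above the 0.936 to 1.28 CPM of A, B and C, on 13 counts in D. In oocytes 5 and 9 it was far above the highest of A, B and C in any oocyte, 2.45 CPM. The log2 fold change of E against D was 4.52 ± 0.49 (SE; adjusted p 0.000164, edgeR). It missed the threshold in each pair of oocytes alone and in the fit of D and E alone, with adjusted p up to 0.124 over 16 alternatives and 1.30e-08 at the least.

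AMEXTC_0340000057870 was among the RNAs lower in E. It had 17.8, 13.1, 20.2 and 28.8 CPM in D and 4.01, 4.79, 6.90 and 12.6 CPM in E of oocytes 4, 5, 9 and 10. The groups did not overlap, although the value of oocyte 4 in E stands for 3 counts. Its log2 fold change was -1.40 ± 0.25 (SE; adjusted p 0.00321, edgeR), after -1.30 ± 0.19 into D. The threshold was missed in 4 of 16 alternatives, whose adjusted p lay between 1.08e-05 and 0.225 (edgeR, DESeq2 or limma).

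AMEXTC_0340000234461 was more abundant, with 286, 342, 1030 and 681 CPM in D and 167, 183, 442 and 421 CPM in E of oocytes 4, 5, 9 and 10. It was lower in E in each oocyte, but the groups overlapped because oocytes 9 and 10 were higher than 4 and 5 in both segments. Its log2 fold change was -0.90 ± 0.24 (SE; adjusted p 0.0418, edgeR), after -0.66 ± 0.20 into D (adjusted p 0.0435, edgeR). Against C alone the change into D was -0.61 and was not called (adjusted p 0.178, edgeR). The call for E against D did not hold in 9 of 16 alternatives, among them the fits without oocyte 4, 5 or 9. Over the 16, the adjusted p lay between 0.000503 and 0.522 (edgeR, DESeq2 or limma).

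**Figure D4:**
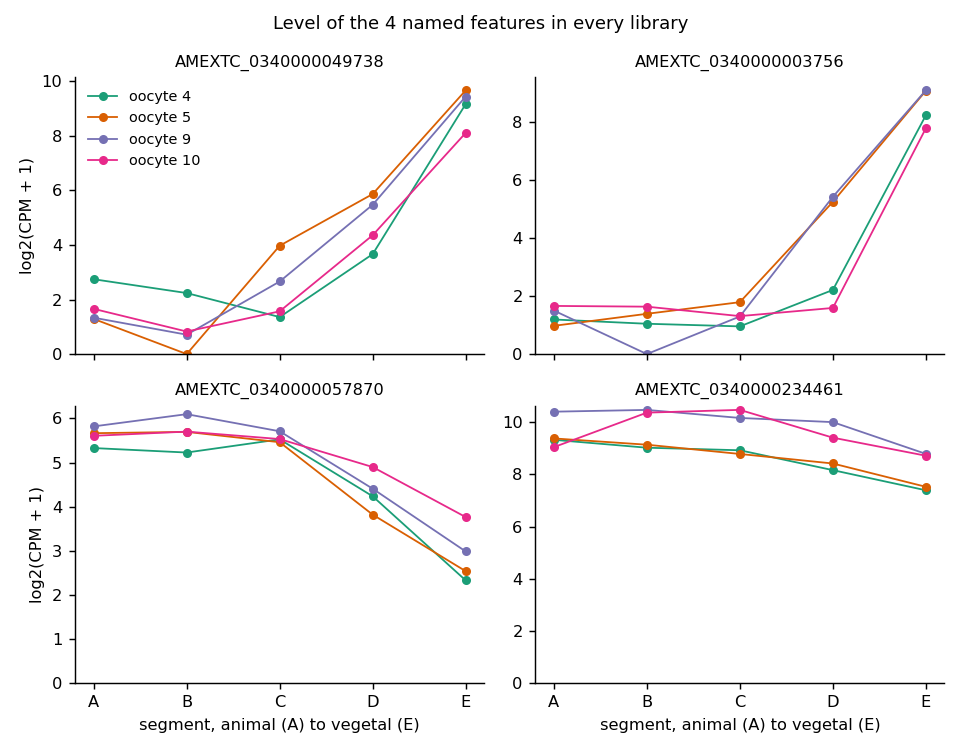
The y axes give log2(CPM + 1) of the 4 named features, the x axes the segment, and each line is 1 oocyte. The upper features stay low in A and B and reach 217 to 813 CPM in E, and the level in D differs between oocytes (near that of A to C in oocyte 10 for AMEXTC_0340000003756), and the lower features decline from C to E in every oocyte.

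Segment E had fewer detected features than segment D at equal depth in these oocytes, and its most abundant RNAs held more of the counts. In libraries thinned to 806943 counts, 28767 ± 487 features were detected in D and 27537 ± 1566 in E (SD, n = 4), lower in E in 4 of 4 oocytes by 196 to 3135. The largest difference was in oocyte 4, whose E library was not thinned. Low detection was not confined to E: segment B of oocyte 9, with 1467884 counts before thinning, had 27648 features. Segment E of oocytes 9 and 10 had 28570 and 28808, and the part of the original depth was not tested. The 100 most abundant features held 14.6% ± 1.36 of the counts in D and 17.9% ± 2.14 in E (SD, n = 4), higher in E in 4 of 4 oocytes. The exact two-sided paired permutation p was 0.13 for each measure, the smallest that 4 pairs can give.

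The oocytes agreed in part on the step over all RNAs, called or not. Across the 15590 features of at least 10 CPM, the log2 differences of E against D correlated between oocytes with Pearson's r from 0.170 to 0.367 over the 6 pairs of oocytes. The lowest r was between oocytes 4 and 5 and the highest between 9 and 10. By Spearman's rho the lowest was again between 4 and 5 (0.263). The highest rho was between 4 and 9 (0.347), with 0.335 between 9 and 10. These correlations are across features, which are not independent replicates, and the oocytes of a pair share no library. The SD of these differences was 1.67 in oocyte 4 and 0.810 to 1.05 in the others.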

How the data were processed

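RNA was sequenced from 4 oocytes in 5 segments (20 libraries). The authors deposited raw counts per feature for 32960 features, each with at least 30 counts in some library, and a table of scaled values, a signal equal to the count times 1 constant per library. Divided by it, 100% of values were whole reads (tolerance 0.01) and equal to the deposited counts, and the count test with those constants as scaling called 11747 features. Per the submitters' processing notes, Trimmomatic, STAR 2.5.3a, kallisto and DESeq2 were used. Their roles, the build and the annotation are not given in the sources used here.

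The analysis ran in edgeR 4.0.16 under R 4.3.3: filterByExpr (minimum count 10, total 15) kept 32302 features and left out 658 with 0.0580% of counts. The model held TMM factors, segment means and an oocyte block (12 residual degrees of freedom), with robust quasi-likelihood tests and Benjamini-Hochberg adjustment over all features at 0.05. It was fitted to all 20 libraries, which share 1 estimate of the spread. SEs are the log2 fold change over the root of F. Single-library log2 levels used a prior count of 2. Thinning drew reads without replacement. The fit was also run on counts simulated from its own fitted means and spread. That checks the code, and cannot show whether the scaling or the shared spread suits these libraries.

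Equal oocyte numbers mark the same oocyte per the labels; deviations from segment means correlated between D and E with r from 0.208 to 0.368 over the 4 oocytes. No columns were identical (0 pairs).

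Named features have an adjusted p under 0.05 for E against D, a mean of at least 10 CPM in D and E and 1 direction in all 4 oocytes; in each direction the largest smallest-oocyte difference on log2(CPM + 1) is taken among those already changed in D and among those of the last step only. The latter held 0 eligible features, so the next of the former took their place. Preset gene lists could not be used without gene names. The segments, tests and rules were chosen with earlier results of these data known. Alternatives were other scalings, filters, thinning, no block, oocytes left out or paired, D and E alone, C as reference, DESeq2 1.42.0, limma 3.58.1 on log2 of the scaled value plus 1, an adjusted p under 0.01 and a test against a 2-fold change.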

Additional observations from a re-analysis of the deposited data

Results flagged for a closer look

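A value far from the other 3 of its group was found in 4 of 47 groups of 4 libraries or oocytes checked, where chance gives about 2.35, that is 1 in 20. AMEXTC_0340000049738 had 5.70 CPM in segment A of oocyte 4, against 1.44 to 2.15 CPM in segment A of the others. AMEXTC_0340000234461 had 1361 CPM in segment A of oocyte 9, against 529 to 667 CPM. The median log2 difference of E against D over all tested features was -0.161 in oocyte 4 and 0.00 in the others. Over features of at least 10 CPM it was -0.139 in oocyte 4 and -0.01 to 0.01 in the others. The last 2 values come from the same pair of libraries, which includes the shallowest of the series; the part of depth was not tested.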

How the results depend on the processing

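Series of 3 counts give all calls, those higher in E and those lower in E. Counts not given stayed within 1.5 times the value in the report. RLE factors, no filter and a minimum mean CPM of 1 moved no count by more. Where no cause is shown, the cause was not tested.

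With library totals alone, 4082 features were called, 2970 lower in E, of which 1497 were already lower in D and 13 had risen in D. With the authors' constants there were 11747, 740 higher and 11007 lower in E: 298 already higher, 70 higher at the last step only, 192 higher after a fall in D, 10838 already lower and 20 lower at the last step only. Limma on their values gave 12330, 708 and 11622.

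In thinned libraries, with fewer counts and fewer features tested, 1154 were called and 281 were lower: 670 already higher, 3 higher after a fall, 125 already lower, 0 lower at the last step only and 5 lower after a rise. With no replicate block the counts were 859, 642 and 217, with 518 already higher, 2 higher after a fall, 139 already lower and 0 lower after a rise; 858 of the 859 were among the 2041. At an adjusted p under 0.01 they were 928, 717 and 211, with 590 already higher, 1 higher after a fall, 142 already lower and 0 lower after a rise. The test against a 2-fold change gave 138, 136 and 2. D and E alone, with the replicate block, gave 123, 123 and 0 (1381 lower at an unadjusted p under 0.05).

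DESeq2 with the replicate block gave 3260, 2046 and 1214, of which 2013 were among the 2041, with 20 higher and 21 lower at the last step only, 69 higher after a fall and 17 lower after a rise. With C as the reference, 8 were higher after a fall, 293 already lower and 0 lower after a rise.

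Fits to fewer oocytes called fewer features. Leaving out 1 oocyte gave 810 to 1508 calls, 636 to 1062 higher and 140 to 446 lower in E. In those fits 483 to 729 were already higher, 3 to 10 higher after a fall, 89 to 222 already lower, 0 lower at the last step only and 1 to 4 lower after a rise. Oocytes 9 and 10 alone gave 101, 98 and 3, with 76 already higher, 1 higher after a fall, 3 already lower, and 0 lower at the last step only or after a rise. Oocytes 4 and 5 alone gave 0 in every group (3812 at an unadjusted p under 0.05). No named feature changed its sign in 16 alternatives each, which follows in large part from their choice by 1 direction in all oocytes.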
